A study of Homo sapiens with 4 samples.

Results

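The globin genes of both human clusters were followed in MDS-L cells, a myeloblastic line from a patient with myelodysplastic syndrome that depends on IL-3, and in MDS-L/CDA cells, MDS-L cells transduced with the cytidine deaminase gene CDA. Both lines were kept in RPMI1640 with serum and IL-3, and each was exposed for 72 h to 0.1% DMSO (vehicle) or to 1 μM 5-azacytidine (AZA), a cytidine analog that inhibits DNA methyltransferases and that cytidine deaminase inactivates. Total RNA from each of the 4 conditions was hybridized to 1 one-colour array, so there is no replicate, no test was possible, and every difference compares single arrays. For the MDS-L AZA and MDS-L/CDA vehicle arrays, 1 label field names the opposite treatment, and the groups follow the source names. The members were the probes named after 10 globin genes, HBZ, HBM, HBA1, HBA2 and HBQ1 of the alpha cluster on chromosome 16 and HBE1, HBG1, HBG2, HBD and HBB of the beta cluster on chromosome 11. The array held 13 such probes for 8 of the 10 genes, among 58185 probes for 43311 gene names. None was named HBA1 or HBG2, but 2 of the 3 HBA2 probes also listed the HBA1 transcript and both HBG1 probes also listed the HBG2 transcript, so they are read as HBA and HBG signal.

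Hemoglobin is built from a pair of alpha-type and a pair of beta-type chains. The genes of each cluster are used in turn during development, zeta (HBZ) and epsilon (HBE1) in the embryo, gamma (HBG1 and HBG2) in the fetus, and beta (HBB) with a little delta (HBD) in the adult. Repressors such as BCL11A, together with DNA methylation, keep the gamma genes silent in adult erythroid cells, and inhibitors of DNA methylation are known to raise gamma globin there.

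Signals are given in scanner units after scaling each array to a common 75th percentile. A signal was called well above background when the scanner software flagged it so, and the lowest signal so flagged lay between 8.61 and 13.4 on the 4 arrays. Between 32.6% and 36.5% of all probes were well above background on an array. Of the 13 globin probes, 3 were well above background on the MDS-L vehicle array, 9 on the MDS-L AZA array, 2 on the MDS-L/CDA vehicle array and 2 on the MDS-L/CDA AZA array. The CDA probe stayed below background on all 4 arrays (4.77, 4.27, 4.98 and 6.60), so the transduced gene gave no check of the line labels. Whether that probe lies within the transduced sequence was not tested. Values below are always in the order MDS-L vehicle, MDS-L AZA, MDS-L/CDA vehicle and MDS-L/CDA AZA.

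**Figure D1:**
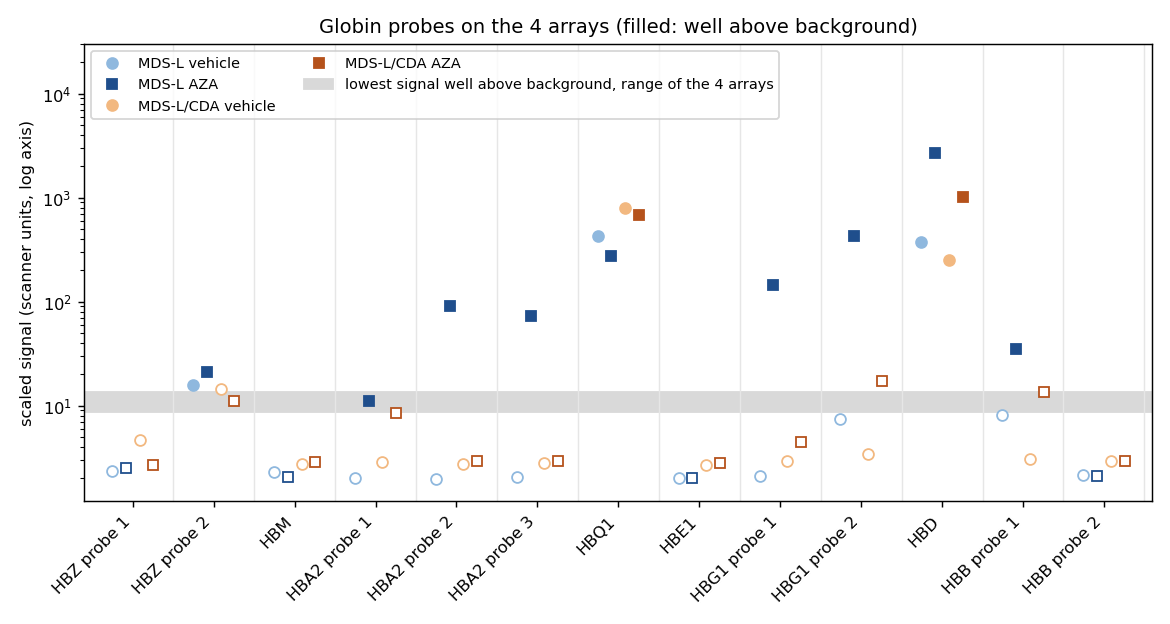
Scaled signal (scanner units, log axis) of the 13 globin probes on the 4 arrays, 1 point per array, filled where well above background, with a grey band for the lowest signals so flagged (8.61 to 13.4). HBD and HBQ1 are filled on all 4 arrays, and the HBA2, HBG1 and HBB probes only on the MDS-L AZA array, except HBB probe 2, which is open throughout.

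HBD, which encodes the delta chain of the minor adult hemoglobin A2, gave 374.9, 2684.3, 250.7 and 1007.7. Both AZA arrays lay above both vehicle arrays. AZA gave 7.16-fold more HBD signal in MDS-L (log2 ratio 2.84) and 4.02-fold more in MDS-L/CDA (log2 ratio 2.01). HBD, like every globin probe, had 1 spot per array. A technical SD was therefore borrowed from other probes of similar signal that have 10 spots on an array. It was 0.31 and 0.42 for these log2 ratios and leaves out any spread between cultures. The ratio in MDS-L exceeded that in MDS-L/CDA by 0.83 on the log2 scale with a technical SD of 0.52, and 5.63% of the 17809 probes well above background on all 4 arrays had a larger difference in that direction. The lines differed less in vehicle, where the log2 ratio of MDS-L/CDA to MDS-L was -0.58, than in AZA, where it was -1.41 and MDS-L was 2.66-fold higher. The probe is a run of 60 genomic bases at chr11:5255258-5255317 (hg19, minus strand). It is shown whole because it carries the only globin signal past 2-fold in both lines.
HBD probe: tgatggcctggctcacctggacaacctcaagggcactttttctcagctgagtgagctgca
Its longest run shared with any other globin probe of the array was 9 bases, which compares probes only and not whole transcripts. Whether HBB transcripts, close relatives of HBD, contribute to this probe was not tested.

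The gamma genes showed the largest bound of all globin probes. HBG1 probe 2 gave 7.43, 429.7, 3.43 and 17.1, and HBG1 probe 1 gave 2.11, 144.9, 2.92 and 4.51. Only the MDS-L AZA values were well above background. AZA therefore gave at least 49.9-fold more signal in MDS-L by probe 2 and at least 16.8-fold more by probe 1, taking the lowest signal well above background on the vehicle array for the dim value. Against MDS-L/CDA AZA, MDS-L AZA was at least 25.1-fold and at least 10.8-fold higher. In MDS-L/CDA no fold is given, since both arrays were below background. The value of 17.1 for probe 2 in MDS-L/CDA AZA was above the lowest flagged signal of its array (13.4) but was not itself flagged. The 25.1-fold therefore takes 17.1 as it stands. The probes lie at chr11:5269554-5269613 (probe 2) and chr11:5269534-5269593 (probe 1) on the minus strand and share 40 positions. One base differs there, G22T from probe 1 to probe 2 (counted from 1 at the 5′ end of probe 1). The 30 bases around it are shown with that base in capitals, as the only difference within the shared positions. Each probe also has bases outside them. Whether that base bears on the difference in signal between the probes was not tested.
HBG1 probe 1: ctcactgcccatgatGcagagctttcaagg
HBG1 probe 2: ctcactgcccatgatTcagagctttcaagg
The files do not say which gamma gene carries which base, and HBG1 and HBG2 cannot be told apart from these values.

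HBB encodes the adult beta chain. HBB probe 1 (chr11:5246718-5246777) gave 8.19, 34.9, 3.10 and 13.4, and was well above background only on the MDS-L AZA array. AZA gave at least 4.06-fold more signal in MDS-L, and MDS-L AZA was at least 2.61-fold above MDS-L/CDA AZA. HBB probe 2 (chr11:5248743-5248802), which is assigned to another transcript, stayed between 2.12 and 2.94 on all arrays and gave no fold. HBE1, the embryonic epsilon gene (chr11:5291121-5291180), stayed between 2.02 and 2.79, below background on all 4 arrays.

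In the alpha cluster, HBA2 encodes the alpha chain found in fetal and adult hemoglobin. HBA2 probe 2 (chr16:223555-223614) gave 1.97, 90.0, 2.75 and 2.92, and probe 3 (chr16:223560-223619) gave 2.07, 73.0, 2.84 and 2.95. These probes share 55 bases and are not independent. Both were well above background only on the MDS-L AZA array, which was at least 10.5-fold (probe 2) and at least 8.48-fold (probe 3) above MDS-L vehicle. Over MDS-L/CDA AZA it was at least 6.71-fold and at least 5.45-fold higher. HBA2 probe 1 (chr16:222889-222948), at the 5′ end of the transcript, gave 2.02, 10.97, 2.85 and 8.46. It was flagged only on the MDS-L AZA array, and its bound of at least 1.27-fold over vehicle did not reach 2-fold.

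HBQ1 encodes theta globin and was not higher with AZA in either line. It gave 428.0, 274.1, 799.7 and 687.1, well above background everywhere, with both MDS-L/CDA arrays above both MDS-L arrays. The AZA array was 1.56-fold lower than vehicle in MDS-L (log2 ratio -0.64, technical SD 0.37) and 1.16-fold lower in MDS-L/CDA (log2 ratio -0.22, technical SD 0.33). HBQ1 was 1.87-fold higher in MDS-L/CDA than in MDS-L in vehicle and 2.51-fold higher in AZA. The difference between the AZA ratios of the lines was -0.42 on the log2 scale, inside its technical SD of 0.49. The probe covers chr16:230574-230717 (hg19, plus strand), 144 genomic bases for 60 probe bases, so it spans a splice junction. It is shown as the globin probe detected on every array that was lower with AZA.
HBQ1 probe: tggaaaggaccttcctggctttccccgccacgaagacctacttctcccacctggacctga

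HBZ, the embryonic zeta gene, was near the detection limit. HBZ probe 2 (chr16:204445-204504) gave 15.7, 21.0, 14.4 and 11.1, and only the MDS-L values were flagged. Its AZA ratio in MDS-L was 1.33 (log2 0.42, technical SD 0.41), and centring each array on its median turned this log2 ratio to -0.13. HBZ probe 1 (chr16:202914-202973) stayed between 2.35 and 4.69 and HBM, the mu globin gene (chr16:216693-216752), between 2.07 and 2.87. Neither was flagged on any of the 4 arrays.

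A gene was called when at least 1 of its probes differed 2-fold or more, with dim values raised to the detection limit as above. With AZA in MDS-L, 6 globin genes were measured, of which 4 (HBA2, HBG1, HBD and HBB) were called higher and 0 lower. Over all 17202 genes measured in that pair, 7.7% were called higher and 7.51% lower. With AZA in MDS-L/CDA, 2 globin genes were measured and 1 (HBD) was called higher and 0 lower, against 3.09% and 4.09% of 15410 genes. In vehicle, 0 of 3 measured globin genes were called in either direction between MDS-L/CDA and MDS-L, where 2.59% of 16034 genes were higher and 3.46% lower in MDS-L/CDA. In AZA, HBQ1 was called higher and 4 genes (HBA2, HBG1, HBD and HBB) lower in MDS-L/CDA, of 6 measured, against 6.74% and 6.26% of 16768 genes. The HBB calls in both comparisons ended after normexp background correction and when a Z score of 2 was also required. The HBA2 calls ended when every measured probe had to pass, and the HBQ1 call ended without scaling and after normexp. The comparisons share arrays, so the calls in AZA between the lines and those with AZA in MDS-L rest on the same MDS-L AZA array. A gene measured only because it was flagged on that array could be called there only in 1 direction. This holds for HBA2, HBG1 and HBB, which could be called only higher with AZA in MDS-L and only lower in MDS-L/CDA in AZA. With a flag on both arrays required, 3 globin genes were measured with AZA in MDS-L and 1 (HBD) was called higher. Over all genes, 770 were then called higher and 1097 lower.

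**Figure D2:**
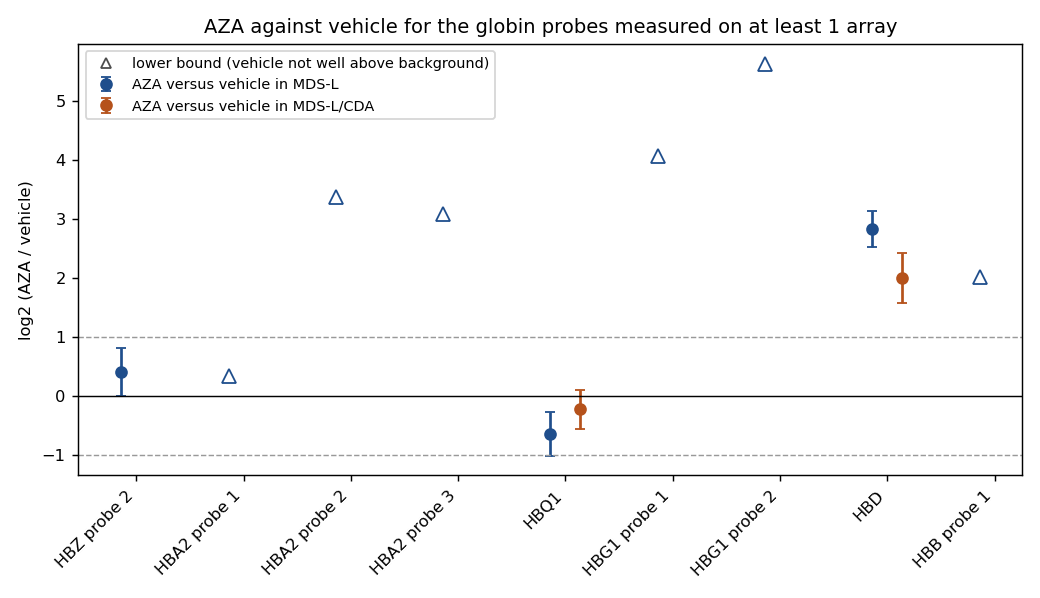
Log2 ratio of AZA to vehicle (vertical axis) for the 9 globin probes measured in at least 1 line, blue for MDS-L and orange for MDS-L/CDA, with dashed lines at 2-fold. Bars show the technical SD taken from replicate spots of other probes of similar signal. Open triangles are lower bounds, where the vehicle signal was below background, from 0.35 for HBA2 probe 1 to 5.64 for HBG1 probe 2, and HBD is the only probe past 2-fold in both lines.

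The split of all calls moved with the scaling. With AZA in MDS-L, 1325 genes were higher and 1292 lower, but 617 and 5017 when arrays were centred on their median, 1796 and 826 when the 75th percentile was taken over probes well above background on all arrays, and 1602 and 983 with spike-in scaling. The median log2 ratio of all measured genes moved by -0.54, 0.18 and 0.12 in these. In MDS-L/CDA the split was 476 and 631, but 319 and 871 without scaling and 74 and 228 after normexp background correction. Between the lines it was 416 and 554 in vehicle, but 70 and 2176 with the median, 114 and 1412 without scaling, 314 and 676 with the flagged-probe percentile and 39 and 297 with normexp. In AZA it was 1130 and 1050, but 503 and 1634 with the flagged-probe percentile, 217 and 2645 without scaling and 137 and 493 with normexp. Over these settings the log2 AZA ratio of HBD stayed between 2.30 and 3.10 in MDS-L and between 1.77 and 2.03 in MDS-L/CDA.

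The probes around the clusters did not share one pattern. HBBP1, a pseudogene between the gamma genes and HBD, gave 32.1, 237.0, 18.7 and 37.3, all well above background. AZA gave 7.39-fold more HBBP1 signal in MDS-L and 2.00-fold more in MDS-L/CDA, the latter at the threshold and under it in 6 of 9 settings of scaling, background and spot filter. BGLT3, also inside the beta cluster, stayed between 2.09 and 2.99, below background, and was named after its values were seen. Of the 25 other probes within 200000 bases of the beta globin probes, mostly olfactory receptor genes, 0 were flagged on any of the 4 arrays. Of the 19 probes in the same distance of the alpha cluster, 12 were measured with AZA in MDS-L, with 2 called higher and 1 lower, and 11 in MDS-L/CDA with 0 called. Over all genes measured, 7.7% were called higher and 7.51% lower in MDS-L, and 3.09% and 4.09% in MDS-L/CDA. PDIA2, a protein disulfide isomerase gene in the flank of the alpha cluster, gave 4.26, 123.3, 2.96 and 10.9, at least 14.3-fold higher with AZA in MDS-L. NPRL3, whose introns hold the distal enhancers of the alpha genes, gave 2692.1, 2243.4, 2572.2 and 2243.4, with no fold of 2 or more.

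**Figure D3:**
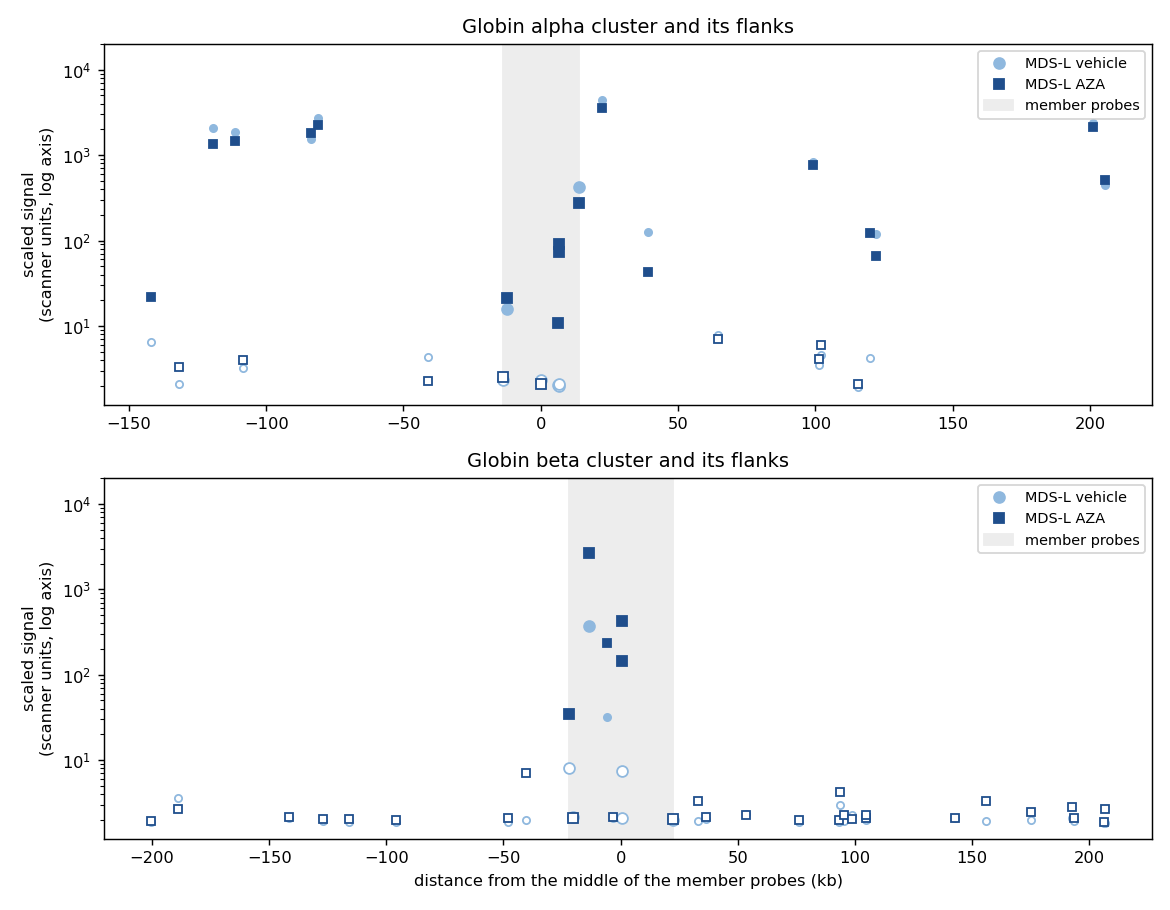
Scaled signal (scanner units, log axis) in MDS-L vehicle (circles) and MDS-L AZA (squares) against distance from the middle of the globin probes (kb), filled where well above background, with the span of the globin probes shaded. Around the beta cluster every filled point lies inside the shaded span, while most probes filled around the alpha cluster are filled on both arrays, PDIA2 and 1 probe listed by a transcript ID being filled in AZA only.

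Of 33 genes listed as regulators of globin genes, 32 were measured with AZA in MDS-L, and 5 were called higher and 1 lower. Their median log2 ratio was -0.10, beside -0.13 over all genes measured, of which 7.7% were called higher and 7.51% lower. In MDS-L/CDA 30 were measured, with 3 called higher and 0 lower and a median of -0.05 beside 0.02, against 3.09% and 4.09% of all genes. Between the lines in vehicle 31 were measured. There 1 (HBS1L) was higher and 2 (GATA1 and TAL1) lower in MDS-L/CDA, against 2.59% and 3.46% of all genes. In AZA, also of 31, 1 (BCL11A) was higher and 2 (GATA1 and LIN28B) lower, against 6.74% and 6.26%.

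BCL11A, which encodes a repressor of the gamma genes, was the 1 regulator called lower with AZA. Its brightest probe gave 1551.7, 626.1, 1787.4 and 1399.4. All 4 BCL11A probes were lower with AZA in MDS-L, by 2.48- to 4.25-fold. In MDS-L/CDA the fold sizes were 1.00 to 1.62, none past 2-fold.

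GATA1, the erythroid and megakaryocytic transcription factor, gave 57.2, 653.7, 23.0 and 94.2 and was called higher with AZA in both lines. GATA2, its progenitor counterpart, gave 602.8, 1480.3, 595.6 and 1198.4, 2.46-fold and 2.01-fold higher with AZA. Its call in MDS-L/CDA ended in 3 of 9 settings of scaling, background and spot filter, and those of GATA2 and NFE2 in MDS-L ended with median centring. NFE2, a factor of the megakaryocyte and erythroid lineages that binds the beta locus control region, gave 4045.2, 10480.7, 3928.1 and 5677.1, 2.59-fold higher in MDS-L and 1.45-fold higher in MDS-L/CDA. TAL1 gave 96.4, 156.4, 44.0 and 103.4 and passed 2-fold with AZA only in MDS-L/CDA (2.35-fold), beside 1.62-fold in MDS-L. The calls of GATA1 and TAL1 with AZA in MDS-L/CDA ended after normexp. In vehicle, GATA1 was 2.49-fold and TAL1 2.19-fold lower in MDS-L/CDA than in MDS-L, calls that also ended after normexp. Whether the AZA ratios of these genes differ between MDS-L and MDS-L/CDA was not tested.

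LIN28B, an RNA-binding protein linked to the fetal gene program, gave 115.3, 479.8, 79.7 and 44.1. It was 4.16-fold higher with AZA in MDS-L and 1.81-fold lower in MDS-L/CDA. HBS1L was called through a dim probe (13.9, 28.5, 33.3 and 24.1), while its brightest gave 703.7, 829.9, 557.7 and 453.2. KLF1, the activator of the adult beta gene, gave 64.2, 41.1, 94.6 and 66.3 and was not called. MYB, ZBTB7A and DNMT1 were not called in any comparison, and SOX6 was below background on all 4 arrays.

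**Figure D4:**
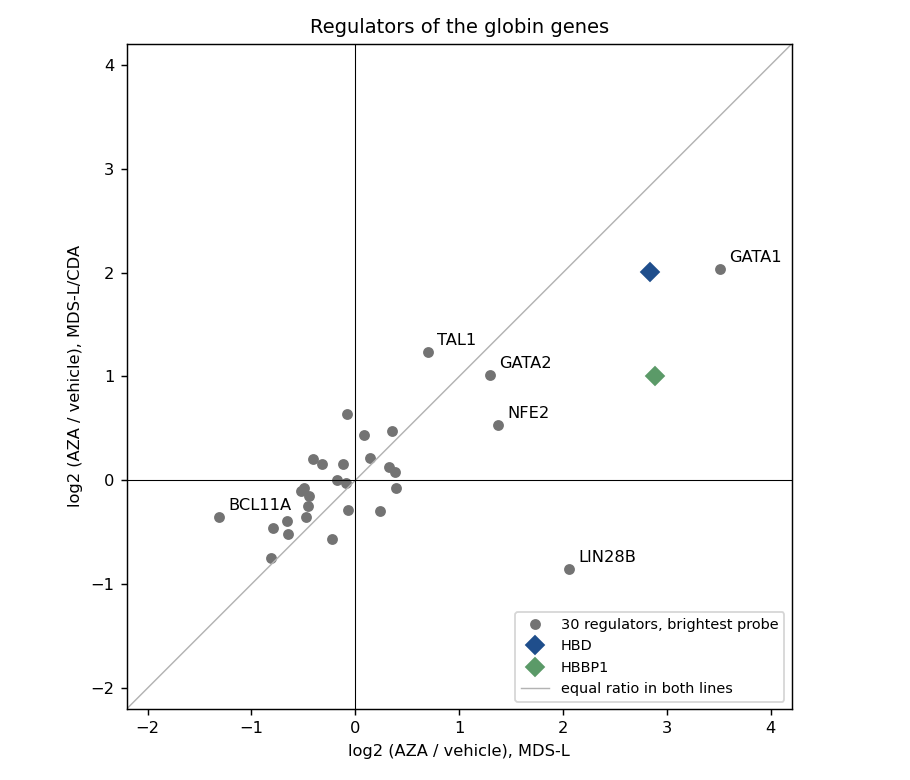
Log2 AZA ratio in MDS-L (horizontal) against MDS-L/CDA (vertical) for the brightest probe of the 30 regulators well above background on all arrays, with HBD and HBBP1 as diamonds and a line of equal ratios. Most regulators sit near 0 in both lines, GATA1 (3.51 and 2.04) lies closest to HBD (2.84 and 2.01) among the named genes, and LIN28B (2.06 and -0.86) lies on opposite sides of 0.

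Of 32 genes for the alpha-chain chaperone, the red cell membrane and heme synthesis, 25 were measured with AZA in MDS-L, and 2 were called higher and 3 lower (median log2 ratio -0.08), against 7.7% and 7.51% of all genes measured. For MDS-L/CDA, 19 were measured, with 1 higher and 2 lower and a median of 0.04, against 3.09% and 4.09% of all genes. The chaperone gene AHSP (2.28 to 4.47) and the erythroid heme enzyme gene ALAS2 (2.15 to 3.12) stayed below background on all 4 arrays.

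The 2 called higher in MDS-L were ANK1, a membrane skeleton gene (1.92, 50.7, 2.70 and 2.86), at least 5.89-fold, and CA1, carbonic anhydrase 1 (5.56, 27.0, 2.82 and 10.5), at least 3.13-fold. CA2, its relative, gave 934.2, 257.4, 339.7 and 163.9 and was lower with AZA in both lines (3.63-fold and 2.07-fold). EPB42, a membrane protein gene, was 2.07-fold lower in MDS-L, a call that ended in 3 of 9 settings, and FECH, the last heme enzyme, was called lower there through a dim probe only. CPOX, a heme enzyme gene, was 2.21-fold higher and ALAD 2.27-fold lower in MDS-L/CDA. After normexp the calls of ANK1, CA1 and FECH in MDS-L and of CA2 and ALAD in MDS-L/CDA also ended. Among the other globins, cytoglobin (CYGB) gave 344.4, 239.8, 263.7 and 223.9 and was not called, and MB, NGB and ADGB were below background.

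Cell type markers were read on the same arrays. Of 8 markers of CD34-positive myeloid blasts 7 were well above background on every array, MPO being the exception, and their median log2 AZA ratio was -0.40 in MDS-L and -0.21 in MDS-L/CDA. KIT gave 22.8, 1080.0, 15.7 and 56.2 and was called higher with AZA in both lines, in MDS-L/CDA not after normexp. HLA-DRA gave 251.5, 82.7, 182.3 and 87.4 and was called lower in both lines, in MDS-L/CDA not after normexp. CD38 gave 1065.6, 382.2, 1171.5 and 849.5 and was called lower in MDS-L. The summed signal of the 7 erythroid markers was 230.2, 165.5, 245.8 and 201.5, with AHSP and ALAS2 never flagged. Of the megakaryocyte markers, GP1BA and PF4 were never flagged, and GP9, PPBP and VWF were called higher with AZA in MDS-L, and PPBP and VWF in MDS-L/CDA, where both calls ended after normexp. The T cell marker CD3D gave 8.03, 202.7, 3.92 and 6.93, with CD3E and CD3G never flagged, and the summed signal of the 3 markers was 13.6, 210.1, 9.64 and 16.4. Their part in the globin differences was not tested. In these bulk cultures, fewer cells of a type and less RNA per cell cannot be told apart.

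Profiles most like those of the globin probes were sought by the distance between centred log2 values over the 4 arrays, as a description across arrays that share their controls. Among 17807 probes well above background on all arrays, the 5 genes closest to HBD were CYP1A1 (distance 0.25), PTGDR2 (0.28), LAT (0.31), AQP3 (0.32) and P2RY14 (0.32). CYP1A1, a cytochrome P450, gave 42.4, 288.3, 32.1 and 133.8. Among 1391 probes flagged only on the MDS-L AZA array, those closest to HBG1 probe 2 were PDIA2 (1.16), RGS16 (1.31), CD3D (1.36), GJA4 (1.36) and ESPNL (1.38). The distances to HBG1 probe 2 rest largely on values below background.

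The promoter table of RefSeq (GRCh38.p14) held only 2 of the 10 globin genes, HBD and HBM, and both are shown. They differ in the number of CG dinucleotides, the sites of DNA methylation. The 250 bases before each start are printed with every CG in capitals, HBD at chr11:5234484-5234733 (minus strand) and HBM at chr16:165728-165977 (plus strand).
HBD promoter: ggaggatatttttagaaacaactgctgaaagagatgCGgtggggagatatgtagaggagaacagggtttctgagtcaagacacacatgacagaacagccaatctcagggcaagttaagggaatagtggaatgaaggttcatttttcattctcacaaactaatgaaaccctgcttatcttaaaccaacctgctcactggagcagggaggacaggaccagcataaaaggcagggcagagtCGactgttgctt
HBM promoter: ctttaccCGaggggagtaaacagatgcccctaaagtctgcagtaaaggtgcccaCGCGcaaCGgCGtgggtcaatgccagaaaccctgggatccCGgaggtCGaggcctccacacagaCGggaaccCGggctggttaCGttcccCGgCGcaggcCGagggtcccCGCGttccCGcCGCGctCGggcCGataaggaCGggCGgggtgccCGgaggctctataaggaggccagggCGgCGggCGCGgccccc
HBD held 2 CG and HBM 27, with a median of 11 over all 35116 promoters, of which 22.9% held as few as HBD or fewer. HBD was higher with AZA in both lines, while HBM was below background throughout, so no AZA ratio is known for HBM. Whether the number of CG bears on the AZA ratio was not tested. Letters known from globin promoters were searched on both strands. CCAAT was found once in HBD, 153 bases before the start, and not in HBM (32.0% of all promoters hold it). CACCC, part of the site KLF1 binds, was not in HBD and was found once in HBM (54.7% of promoters). GATA was found 3 times in HBD, 246, 205 and 77 bases before the start, and once in HBM (45.6% of promoters). TATAAA was in neither (10.7% of promoters). These are matches of letters in this window, and methylation was not measured on these arrays.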

How the data were processed

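Total RNA of 4 cultures was hybridized to 1 Cy3 array each on 1 slide. The authors deposited the scanner output of each array, intensity values background-subtracted by Feature Extraction 10.7.1.1 on an hg19 design, and a value table of 51680 probes whose columns, once sorted, differ by at most 0.04 in log2, as after quantile normalization. Titles and source names set the groups, since the treatment field of 2 samples contradicts them, and the titles write the dose as millimolar.

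From the intensities, control spots and outlier spots were left out, log2 signals averaged per probe and the array's 75th percentile over 58185 probes (52.5, 52.9, 40.8 and 37.3) subtracted. A probe was well above background when a share of 0.5 or more of its spots was, and the call ratio was 2. Technical SD came from those of 300 probes with 10 spots that were well above background on the array, grouped by signal. Under a signal of 50, where HBZ probe 2 lies, these were 5 probes on the MDS-L vehicle array and 10 on the MDS-L AZA array. The call rule was tested on simulated data in which only bright probes were changed, so that test says little about calls made from a bound. The named genes were every member, called list genes, markers and the 5 nearest profiles. One marker gene is not reported here. Members and lists were chosen with earlier results of these data known. Python 3.11.15 and limma 3.58.1 (R 4.3.3) were used. Arrays give no counts, and their number, 1 per condition, limits precision.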

Additional observations from a re-analysis of the deposited data

How the results depend on the processing

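Each value was recomputed under 15 alternatives. No called globin ratio changed sign, and 110 of 120 counts of called globin genes stayed within 1.5 times. In the main setting these counts lay between 0 and 4, so most had little room to move. Median centring added 1 gene called lower with AZA in MDS-L (HBQ1) and 1 called lower in MDS-L/CDA in vehicle (HBD). Without scaling, with normexp and at a ratio of 3, 0 genes were higher in MDS-L/CDA in AZA, and at a ratio of 3 the lower count there was 2 (HBA2 and HBG1). Requiring both arrays above background left 1 gene (HBD) higher with AZA in MDS-L and 1 lower in MDS-L/CDA in AZA, because the other genes have 1 measured side. At a ratio of 1.5, HBQ1 made 1 lower with AZA in MDS-L and 1 higher in MDS-L/CDA in vehicle. HBZ joined the genes lower in MDS-L/CDA in AZA, which became 5, without scaling and at a ratio of 1.5. The 4 genes higher with AZA in MDS-L, and the 4 lower in MDS-L/CDA in AZA, became 3 each with normexp and with a Z score of 2 (without HBB), and with every probe required (without HBA2). With normexp the log2 ratio of HBB probe 1 in MDS-L was 0.52. The difference between lines for HBD ranged from 0.35 to 1.13. Counts over all genes ranged from 396 to 2822 higher and 313 to 5017 lower with AZA in MDS-L, 74 to 1794 and 111 to 1906 in MDS-L/CDA, 39 to 1680 and 135 to 2176 between lines in vehicle, and 137 to 3998 and 391 to 2645 in AZA. Of 64 list probe calls, 26 held in all 9 settings of scaling, background and spot filter, and 0 changed sign. Where no cause is given it was not tested. Probes below background have only a bound, and no paired analysis was possible because each condition has 1 array.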
